A study of Mus musculus with 6 samples.

Results

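A set of 10 regulators of alternative splicing was followed in the quadriceps femoris, a thigh muscle, of wild-type mice and of Prr14 knockout mice. They are the RBFOX genes Rbfox1 and Rbfox2, the MBNL genes Mbnl1 and Mbnl2, the CELF genes Celf1 and Celf2, the RNA-binding motif genes Rbm20, Rbm24 and Rbm38, and the kinase gene Srpk3. Members were selected by symbol, and all 10 were found among the 22036 genes of the deposited table. Rbfox1 was picked by its strong fall in the knockout, so its difference between the genotypes is given here as a description, without a test. The other 9 were chosen by gene family, with results of these data already known, and their p-values show only where each gene stands in a fit across all genes.

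The comparison was between 3 libraries of Prr14-WT mice (WT) and 3 libraries of Prr14-KO mice (KO), read as nanopore cDNA from total RNA. Replicates 1 to 3 are numbered in the order of the records. No label names the strain, age or sex, the part of Prr14 removed, or whether each library is a separate animal, so the spread behind each p-value is that between libraries and may be technical. The title of the series asks about mechanotransduction, myofibre identity and the transcription factor MEF2C.

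Alternative splicing in muscle is set by RNA-binding proteins that mark exons for inclusion or skipping. RBFOX proteins bind the element UGCAUG beside their exons, MBNL and CELF proteins act on many of the same transcripts, often in opposite directions, and the shift from CELF to MBNL activity drives the change from fetal to adult isoforms. Sequestration of MBNL proteins on expanded repeat RNA is central to myotonic dystrophy. RBM20 controls the isoforms of titin, and SRPK3 is a muscle kinase that phosphorylates splicing factors rich in serine and arginine. The counts below are totals per gene. They hold no information on isoforms, so splicing itself was not measured here.

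Libraries held 1436099 to 1712975 counts over the listed genes. Levels are given as CPM, the counts divided by a library size scaled by the TMM method and expressed per 1000000, with the SD of the 3 libraries after ±. Lists of 3 values follow the order of replicates 1, 2 and 3. Reads of Prr14 were few, with 9, 11 and 12 counts in the WT and 4, 10 and 3 in the KO libraries, and its difference did not pass (log2 fold change -1.10, edgeR adjusted p = 0.196). Myonuclear genes such as Ckm, Des and Mb were abundant in every library, though the 10 genes of that list summed to less in every KO library (56309 to 58658 CPM) than in any WT library (59910 to 77919 CPM). Most of that sum was Ckm, with means of 59306 CPM in WT and 49708 CPM in KO, which did not pass (edgeR adjusted p = 0.269). These sums depend on the scaling and were not tested. The TMM factors were 0.86 to 0.97 in the WT and 1.06 to 1.11 in the KO libraries. Compared with scaling by library totals, they lower the KO levels beside those of WT. Log2 fold changes were negative for 7 and positive for 3 of the 10 genes, with a median of -0.14 beside 0.02 for all tested genes. Of these 10, Dmd fell and Sgca rose with edgeR, with log2 fold changes of -2.82 and 0.55, the Sgca call did not hold in 8 of 16 alternative settings, and Actn2 (0.86) was called by DESeq2 and limma-voom but not by edgeR. Markers of fibroblasts, endothelium, leukocytes, smooth muscle, nerve, adipocytes and red blood cells were also present. Satellite cell markers were few: 1 of 5 was tested, Cdh15 (log2 fold change -1.21, adjusted p = 0.177 in edgeR), and its libraries overlapped. Pax7, Myf5 and Calcr had at most 3 counts in every library. The same held for Plin1 (adipocytes) and for Sox10, Nefl, Nefh and Nefm (nerve), and Nefm, a neurofilament gene, was at 0 in every library. Of the 40 markers tested, 0 passed with edgeR, DESeq2 or limma-voom and 4 had an unadjusted edgeR p under 0.05. All tested markers of leukocytes (5), red blood cells (5) and nerve (4) had negative log2 fold changes (medians -0.57, -0.66 and -0.17). Those of fibroblasts, endothelium, smooth muscle and adipocytes had both signs. In whole muscle, fewer nuclei of a type and less RNA per nucleus cannot be told apart.

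**Figure D1:**
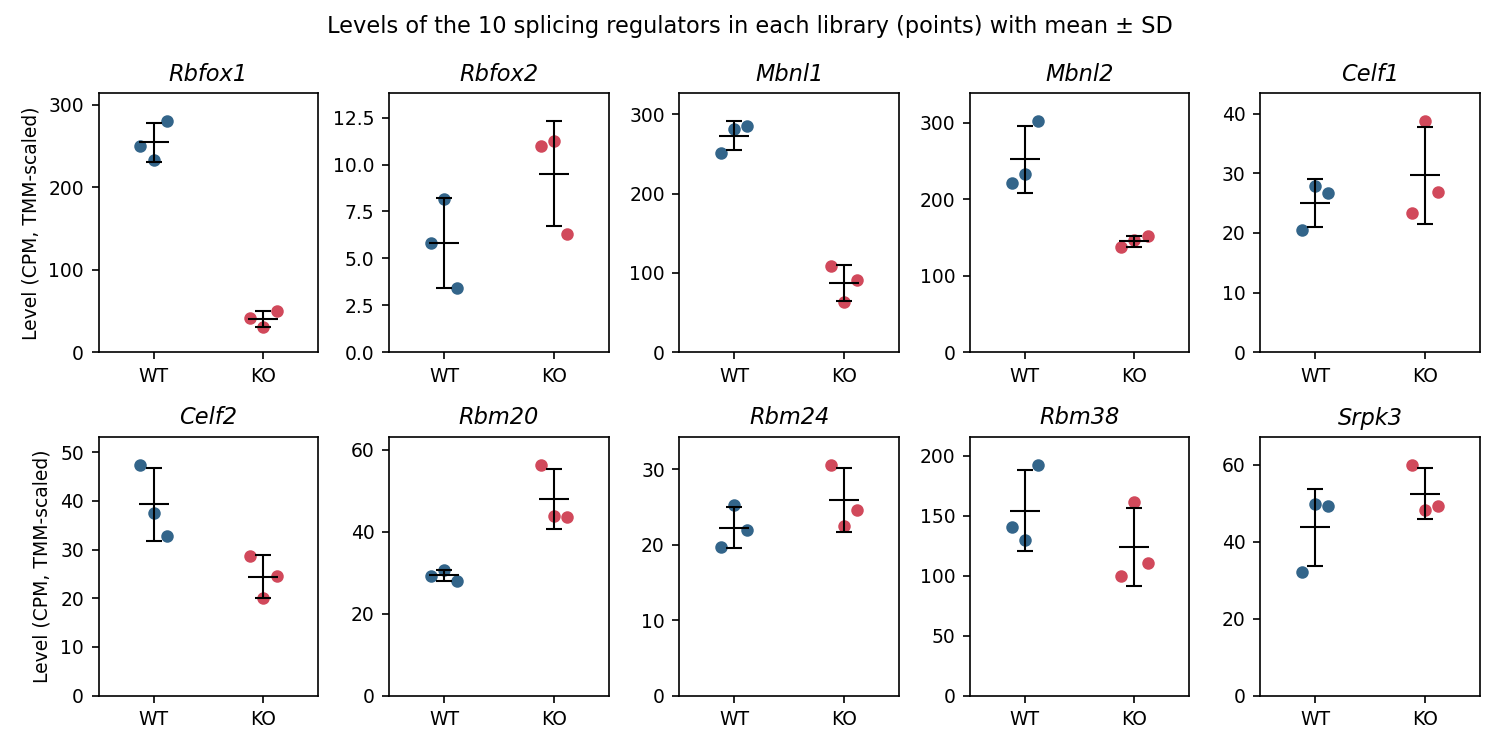
Levels of the 10 splicing regulators (y axis, TMM-scaled CPM, each panel with its own scale from 0) in WT and KO muscle. Points are libraries, and bars are the mean ± SD of 3 libraries. Rbfox1, Mbnl1, Mbnl2 and Celf2 were lower in every KO library than in every WT library, Rbm20 was higher in every KO library, and the other 5 genes overlapped.

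Rbfox1 was the member with the widest gap between the genotypes. The gene spans 1526 kb of chromosome 16 (ENSMUSG00000008658, chr16:5885355-7411526, plus strand, protein coding, GENCODE M21 on GRCm38). It stood at 249.5, 233 and 280.0 CPM (WT) and at 41.6, 30.0 and 49.8 CPM (KO). Every KO library lay far below every WT library, and KO replicate 2 was the lowest. The mean went from 254 ± 23.8 to 40.5 ± 9.98 CPM, 6.28-fold lower in KO, with a log2 fold change of -2.64 (SE 0.18). Ordered from the most negative log2 fold change, Rbfox1 was at rank 15 of the 6680 genes tested. The RefSeq table used holds 2 starts for Rbfox1 that lie far apart, and the counts do not say which of them the reads came from. The 250 bases before each are shown because the counts of the whole gene could come from either. Capitals mark a match to CAGCTG, the E-box form that myogenic factors bind.

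Rbfox1 start 1, chr16:5884543-5884792, plus strand, GRCm38.p6: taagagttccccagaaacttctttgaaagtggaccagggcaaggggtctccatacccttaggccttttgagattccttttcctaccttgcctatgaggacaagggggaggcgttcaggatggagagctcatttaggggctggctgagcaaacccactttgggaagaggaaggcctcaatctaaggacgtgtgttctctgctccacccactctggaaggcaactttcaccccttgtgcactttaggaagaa

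Rbfox1 start 2, chr16:7069585-7069834, plus strand, GRCm38.p6: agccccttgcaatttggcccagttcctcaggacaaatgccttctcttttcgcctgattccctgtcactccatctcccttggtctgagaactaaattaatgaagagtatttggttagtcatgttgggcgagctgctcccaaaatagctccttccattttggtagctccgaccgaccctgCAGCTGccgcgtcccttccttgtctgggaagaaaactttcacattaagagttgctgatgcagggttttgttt

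The window of the start farther along the gene held CAGCTG from 72 bases before the start, and the window of the first start held none of the 4 motifs searched. The motifs were the MEF2 box, the CArG box, CAGCTG and CATTCC (the MCAT element), each on both strands. Of 32851 windows of 250 bases before all RefSeq starts, 13.0% held CAGCTG, 12.6% CATTCC, 2.92% a MEF2 box and 1.47% a CArG box. RefSeq windows were found for 8 of the 10 members (14 windows), all but Rbfox2 and Rbm20. Among those 14 windows, 3 held any of the motifs: the second Rbfox1 start, the first Celf2 start (CATTCC) and Srpk3.

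Rbfox2, the RBFOX paralog that is made in most tissues, was read at low depth (ENSMUSG00000033565, chr15:77078990-77307004, minus strand). It had 8, 12 and 5 counts (WT) and 18, 18 and 11 counts (KO), or 5.81 ± 2.38 and 9.52 ± 2.79 CPM. The lowest KO library overlapped the WT libraries, and the gene did not pass (log2 fold change 0.70 with an SE of 0.40, adjusted p = 0.364 in edgeR). The value was 0.42 without WT replicate 3 and 1.00 without WT replicate 2. Rbfox2 entered the test through the KO libraries: 3 of them and 1 WT library reached the 6.48 CPM that the filter asks for. Of the reads of the RBFOX pair, Rbfox1 held 97.7, 96.6 and 98.8% in the WT libraries and 79.1, 72.7 and 88.8% in the KO libraries, given without a test because Rbfox1 was chosen for its fall. The Wilson 95% intervals of the single libraries ran from 94.2 to 99.5% in WT and from 61.0 to 93.6% in KO. Shares are of reads, whose number also depends on transcript length, and these intervals cover counting error only. Rbfox3, known as the neuronal antigen NeuN, was at 0 counts in all 6 libraries, so the RBFOX reads of this muscle came from Rbfox1 and Rbfox2.

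Both MBNL genes fell in KO. Mbnl1 encodes the main muscleblind protein of adult muscle (ENSMUSG00000027763, chr3:60472830-60629750, plus strand). It stood at 252, 281 and 285 CPM (WT) and at 108, 63.1 and 90.5 CPM (KO). The highest KO library was well below the lowest WT library, and KO replicate 2 was again the lowest. Its mean fell from 273 ± 18.4 to 87.3 ± 22.8 CPM, 3.13-fold lower (log2 fold change -1.64 with an SE of 0.17, adjusted p = 3.02e-05 in edgeR). Mbnl2, which covers for Mbnl1 when that gene is lost, had a smaller log2 fold change (ENSMUSG00000022139, chr14:120275669-120431697, plus strand). It stood at 221, 233 and 302 CPM (WT) and at 138, 146 and 152 CPM (KO), again without overlap. Its mean went from 252 ± 43.6 to 145 ± 7.12 CPM, 1.74-fold lower (log2 fold change -0.80 with an SE of 0.14, adjusted p = 0.00282 in edgeR). Exons of Mbnl2 share 86 bases with Gm26679 on the other strand. Gm26679 is not among the listed genes, and without strand its reads could be counted for Mbnl2.

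Within the MBNL pair the share of reads held by Mbnl1 was lower in the KO libraries, a difference that did not pass. Mbnl1 held 53.2, 54.7 and 48.6% of the pair's reads in the WT libraries and 44.0, 30.1 and 37.4% in the KO libraries. Every KO share was below every WT share (52.2 ± 3.19% and 37.2 ± 6.94%, n = 3 each, two-sided exact permutation p = 0.1, which is the least possible for 3 against 3 libraries, and 0.2 adjusted over the 2 shares tested). A share of reads within a library does not depend on how libraries are scaled. Mbnl3, the third muscleblind gene, had 1 count in all 6 libraries together.

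The CELF genes differed from each other in direction, and neither passed. Celf2 (ENSMUSG00000002107, chr2:6539694-7509563, minus strand) encodes a splicing factor of muscle and brain that is also made in leukocytes. It stood at 47.4, 37.5 and 32.9 CPM (WT) and at 28.8, 19.99 and 24.6 CPM (KO). The 2 groups did not overlap, yet the gap between WT replicate 3 and KO replicate 1 was small (log2 fold change -0.68 with an SE of 0.22, adjusted p = 0.0895 in edgeR). The summed level of 8 leukocyte markers was 597, 348 and 196 CPM (WT) and 233, 222 and 247 CPM (KO). WT replicate 1 was thus the highest library for Celf2 and for these markers, and their part in the Celf2 values was not tested. Without that library the Celf2 log2 fold change was -0.55 (edgeR adjusted p = 0.269). Exons of Celf2 share 1961 bases with Gm26565 on the other strand.

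Celf1 (ENSMUSG00000005506, chr2:90940382-91019497, plus strand), the CELF protein whose level is raised in myotonic dystrophy, stood at 20.4, 27.9 and 26.7 CPM in the WT libraries. The KO libraries were at 23.3, 38.7 and 26.9 CPM, so the genotypes overlapped. The log2 fold change was 0.24 (SE of 0.24, adjusted p = 0.649 in edgeR), and it moved with single libraries: it was 0.002 without KO replicate 2, 0.09 without WT replicate 1 and 0.38 without KO replicate 1. Celf1 held 39.2 ± 7.96% of the reads of the CELF pair in WT and 54.3 ± 10.8% in KO (n = 3 each, two-sided exact permutation p = 0.2, and 0.2 adjusted over the 2 shares tested). Single libraries ranged from 30.1 to 44.8% in WT and from 44.7 to 66.0% in KO, so KO replicate 1 and WT replicate 3 overlapped by a narrow margin. Without KO replicate 2 the difference in share was 9.25 percentage points in place of 15.1.

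**Figure D2:**
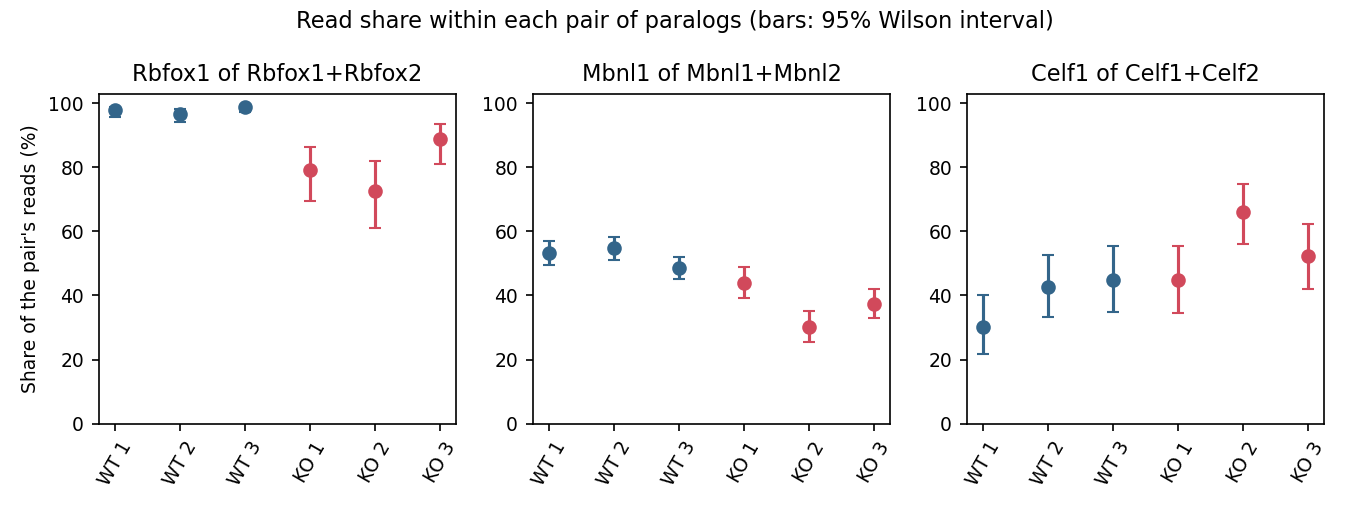
Share of each pair's reads (y axis, percent) held by Rbfox1, Mbnl1 or Celf1 in each library (x axis), with 95% Wilson intervals for counting error. Rbfox1 held 96.6 to 98.8% in WT and 72.7 to 88.8% in KO, Mbnl1 48.6 to 54.7% and 30.1 to 44.0%, and Celf1 30.1 to 44.8% and 44.7 to 66.0%.

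Of the RNA-binding motif genes, Rbm20 rose and the other two did not pass. Rbm20 (ENSMUSG00000043639, chr19:53677306-53867080, plus strand), the titin splicing factor whose mutation causes dilated cardiomyopathy, stood at 29.2, 30.7 and 28.1 CPM in the WT libraries. The KO libraries were at 56.3, 43.7 and 43.5 CPM. All 3 WT libraries lay within a narrow band, and every KO library was above it. The mean rose from 29.3 ± 1.31 to 47.9 ± 7.31 CPM, 1.63-fold higher (log2 fold change 0.70 with an SE of 0.19, adjusted p = 0.0416 in edgeR). This call was close to the threshold. It was lost with any 1 of the 6 libraries left out (edgeR, adjusted p from 0.0516 to 0.142), with DESeq2 (0.152) and limma-voom (0.0559), and with a slow-fibre score as a covariate (0.0544), while the log2 fold change stayed between 0.57 and 0.94 in all 16 alternative settings.

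Rbm24 (ENSMUSG00000038132, chr13:46418434-46431095, plus strand), a factor that promotes inclusion of muscle exons, stood at 19.7, 25.2 and 21.9 CPM (WT) and at 30.6, 22.5 and 24.6 CPM (KO). The groups overlapped (log2 fold change 0.21 with an SE of 0.22, adjusted p = 0.656 in edgeR), and the value was 0.08 without KO replicate 1 and 0.11 without WT replicate 1. Rbm38 (ENSMUSG00000027510, chr2:173020498-173034734, plus strand), a close relative of Rbm24 that takes part in muscle differentiation, stood at 140.1, 129 and 192 CPM (WT) and at 99.7, 161 and 111 CPM (KO). Its libraries overlapped as well, with KO replicate 2 above 2 of the WT libraries (log2 fold change -0.32 with an SE of 0.20, adjusted p = 0.432 in edgeR). Exons of Rbm38 share 157 and 227 bases with Gm20490 and Gm14453 on the other strand. Its log2 fold change was -0.13 without WT replicate 3, -0.18 without KO replicate 1, -0.55 without KO replicate 2 and -0.07 with library totals as the scale.

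Srpk3 (ENSMUSG00000002007, chrX:73774405-73778925, plus strand) spans 4.52 kb, the shortest of the members, and is a known target of MEF2 factors. The sequence before its start is shown because MEF2C is named in the title of the series and Mef2c itself fell in these libraries. Capitals mark, in this order, 2 copies of CAGCTG and then a MEF2 box.

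Srpk3, chrX:73774155-73774404, plus strand, GRCm38.p6: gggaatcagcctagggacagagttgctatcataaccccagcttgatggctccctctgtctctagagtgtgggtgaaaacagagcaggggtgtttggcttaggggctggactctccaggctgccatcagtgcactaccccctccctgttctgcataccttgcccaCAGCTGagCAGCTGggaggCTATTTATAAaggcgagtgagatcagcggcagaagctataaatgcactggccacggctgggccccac

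The MEF2 box began 67 bases before the start, and the E-boxes began 86 and 78 bases before it, with no overlap between the matches. Srpk3 was the only member with a MEF2 box among the 14 windows searched. Srpk3 stood at 32.1, 49.8 and 49.3 CPM (WT) and at 59.96, 48.1 and 49.3 CPM (KO). Of the KO libraries, 2 lay within the WT range and 1 above it. The gene did not pass (43.7 ± 10.1 and 52.4 ± 6.54 CPM, log2 fold change 0.26 with an SE of 0.20, adjusted p = 0.525 in edgeR). Without WT replicate 1, its lowest library, the log2 fold change was 0.05, and without KO replicate 1, its highest, it was 0.15. In the same libraries Mef2c stood at 348, 363 and 366 CPM (WT) and at 154, 151 and 181 CPM (KO), and fell (log2 fold change -1.15 with an SE of 0.12, adjusted p = 2.50e-05 in edgeR). A match to a motif is not a measured binding site, and binding was not measured here.

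Of the 9 members other than Rbfox1, all of which passed the filter on low counts, 2 fell (Mbnl1 and Mbnl2), 1 rose (Rbm20) and 6 did not pass. Among all 6680 genes tested, 3.28% were called lower and 2.98% higher (edgeR, with a Benjamini-Hochberg adjusted p under 0.05). The KO libraries lay wholly below WT for 3 of the 9 (Mbnl1, Mbnl2 and Celf2) and wholly above for 1 (Rbm20), against 12.2% and 13.5% of all tested genes. Log2 fold changes were negative for 4 and positive for 5 of the 9, with a median of 0.21 beside 0.02 for all tested genes. The positive ones include Rbfox2 (0.70), which entered the test through the KO libraries, where it was higher. The filter thus favoured its sign, and the tally and the median of so few genes rest in part on it. With no TMM scaling, so that libraries are scaled by their totals, the median of all tested genes was 0.25. On that scale Mbnl1 (-1.40) and Mbnl2 (-0.55) were still called lower and Rbm20 (0.94) still higher, and the values were -0.45 for Celf2, 0.48 for Celf1, 0.45 for Rbm24 and 0.50 for Srpk3, none of which passed.

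**Figure D3:**
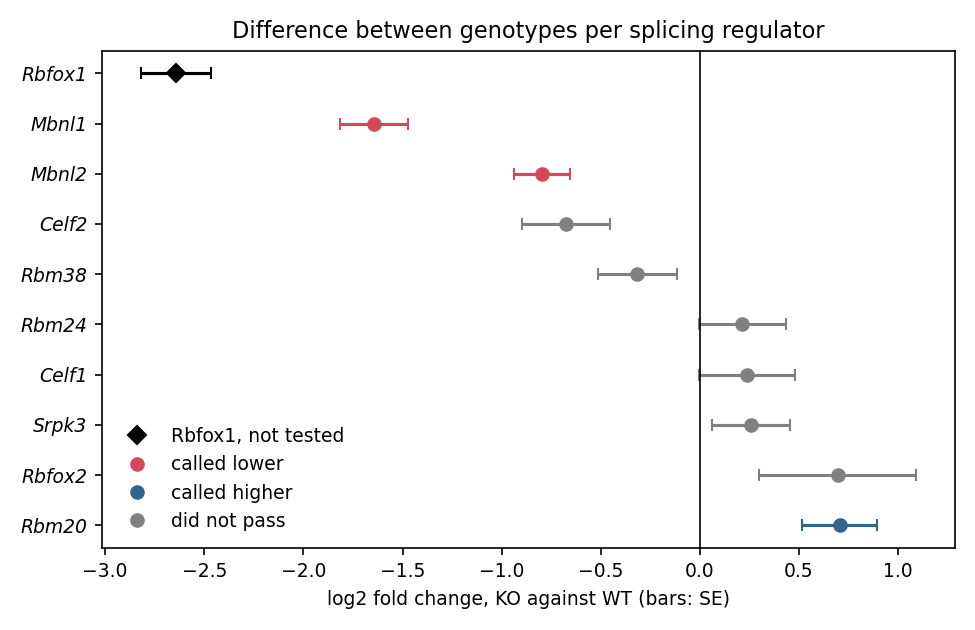
Log2 fold change of each splicing regulator, KO against WT (x axis), with its SE as bars and genes ordered from most negative to most positive. Rbfox1 (-2.64, black diamond, described without a test) and Mbnl1 (-1.64) lie apart from the others, which range from -0.80 to 0.70.

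Slow-fibre genes varied widely among the libraries of both genotypes. Of 11 tested, 9 had a positive log2 fold change (median 0.73, beside 0.02 for all tested genes). Casq2, the cardiac and slow-fibre calsequestrin, rose (log2 fold change 1.40, adjusted p = 0.0024 in edgeR), and the other 10 did not pass. The mean log2 CPM of 11 slow-fibre genes was 5.52, 5.14 and 2.41 in the WT libraries and 4.53, 6.73 and 3.11 in the KO libraries. The summed level of the list was 770, 555 and 95.2 CPM (WT) and 562, 1867 and 210 CPM (KO). By both measures only KO replicate 2 lay above the WT range, and the other KO libraries lay within it. KO replicate 2 had the highest slow-fibre score of all libraries, the lowest Rbfox1, Mbnl1 and Celf2, and the highest Celf1. Mbnl2 was lowest in KO replicate 1. Among the WT libraries, replicate 1 had the highest score. It had the lowest Mbnl1 and Mbnl2 of the WT libraries, but the highest Celf2 and the lowest Celf1, so the CELF genes went the other way there. Rbfox1 did not follow the score in WT: it was lowest in WT replicate 2 (233 CPM, beside 249.5 CPM in WT replicate 1). With this score as a covariate the log2 fold changes of Rbfox1, Mbnl1 and Mbnl2 were -2.61, -1.62 and -0.75, and those of Mbnl1 and Mbnl2 still passed (edgeR adjusted p = 2.87e-05 and 0.00364). Without KO replicate 2 they were -2.47, -1.46 and -0.80.

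Of 148 other splicing genes on 5 lists, 107 were tested, and 1 fell and 2 rose, beside 3.28% lower and 2.98% higher among all tested genes. These counts are near that background. Of 13 tested SR proteins, which bind exons and recruit the spliceosome, Tra2b fell from 68.7 ± 4.04 to 44.5 ± 7.29 CPM (log2 fold change -0.62 with an SE of 0.17, adjusted p = 0.0429 in edgeR). That call did not hold in 12 of 16 alternative settings (the p reached 0.164). Of 44 tested core spliceosome genes Prpf19, a ubiquitin ligase of the spliceosome, and Snrpd3, an Sm ring protein, rose. Prpf19 went from 37.9 ± 14.1 to 88.3 ± 19.4 CPM (log2 fold change 1.22 with an SE of 0.26, adjusted p = 0.0149 in edgeR). The call did not hold when WT replicate 1 (0.0836), KO replicate 1 (0.0653) or KO replicate 3 (0.0515) was left out. Snrpd3 went from 94.6 ± 25.3 to 158 ± 19.4 CPM (log2 fold change 0.74 with an SE of 0.19, adjusted p = 0.0337 in edgeR), and the call did not hold without WT replicate 1 (0.0567), WT replicate 2 (0.182), KO replicate 2 (0.0883) or KO replicate 3 (0.110).

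With edgeR, DESeq2 and limma-voom alike, 0 of the 7 tested kinases of SR proteins other than Srpk3 passed, and 0 of 20 hnRNP genes, which often oppose SR proteins, and 0 of 23 other tissue-restricted regulators. At an unadjusted edgeR p under 0.05 there were 0, 1 and 3 genes on these lists. Srpk1 and Srpk2, the relatives of Srpk3 made in most tissues, stood at 34.8 ± 2.44 and 24.8 ± 5.11 CPM in WT and at 37.6 ± 7.26 and 26.1 ± 1.48 CPM in KO. The list medians were -0.14 for SR proteins, 0.08 for their kinases, 0.10 for hnRNP genes, 0.07 for the core spliceosome and -0.14 for the other tissue-restricted regulators, beside 0.02 for all tested genes. Summed levels were lower in every KO library for SR proteins (969 to 978 CPM in WT, 740 to 914 in KO). So were those of other tissue-restricted regulators (1017 to 1158 and 904 to 997). Sums were higher in every KO library for hnRNP genes (1691 to 1761 and 1788 to 1829). So was that of the core spliceosome (2379 to 2409 and 2563 to 2659), and SR protein kinases overlapped. Abundant genes weigh most in these sums, which depend on the scaling and were not tested. Of the 47 tissue-restricted regulators 15 had at most 3 counts in every library, among them the neuronal factors Nova2, Elavl3, Elavl4 and Srrm4 and the epithelial factors Esrp1 and Esrp2.

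Genes whose transcripts are known to be spliced by these factors were described next, on 3 lists set from general knowledge with earlier results of these data known. Gene totals say nothing of their isoforms. Of the 46 distinct genes tested, 18 fell and 0 rose, where 3.28% and 2.98% of all tested genes did. The list for RBM20, defined from work on heart, held most of them: 14 of 21 tested genes fell and 20 of 21 had a negative log2 fold change (median -0.93). In the alternative settings 10 to 14 of the list were called lower, the fewest without WT replicate 3 or KO replicate 2. The median gene of this list had a mean of 100.05 CPM. Among all tested genes with means of 100 to 500 CPM, 7.54% were called lower, against 1.25% of those under 20 CPM.

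The 4 genes of the RBM20 list with the smallest p were Trdn, Rtn4, Nexn and Pdlim5. Trdn, which anchors calsequestrin to the calcium release channel, fell by 1.72 on the log2 scale, and Rtn4, a protein that shapes the endoplasmic reticulum, by 1.58 (log2 fold change -1.58). Nexn, an actin-binding protein of the Z-disc, went from 335 ± 21.3 to 135 ± 1.65 CPM, and Pdlim5, a Z-disc adaptor of protein kinases, from 284 ± 46.4 to 126 ± 13.4 CPM. Ttn, the best known RBM20 target, was added to these after its values were seen. It stood at 6416, 6909 and 6050.4 CPM (WT) and at 2350, 3388 and 4129 CPM in the KO libraries, and fell (log2 fold change -0.97 with an SE of 0.18, adjusted p = 0.0138 in edgeR). The call did not hold without WT replicate 3 (0.0526) or KO replicate 2 (0.0598). Cacna1c and Ryr2, the heart forms of the calcium channels on this list, had at most 3 counts in every library.

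Of 17 tested genes spliced under RBFOX control in muscle 4 fell (median -0.10): Mef2c, Capn3, Cacna1s and Tpm1. The share called lower was 3.28% among all tested genes and 3.64% among those with means of 20 to 100 CPM, the class of this list's median gene (82.6 CPM). Mef2c lay in the class of 100 to 500 CPM, where 7.54% were called lower, and Tpm1 in that of 500 CPM or more (9.51%). Capn3, a muscle protease whose splicing RBFOX proteins control, stood at 40.9, 30.0 and 32.9 CPM (WT) and at 9.18, 16.2 and 5.73 CPM (KO). Every KO library was below every WT library (log2 fold change -1.74 with an SE of 0.30, adjusted p = 0.00271 in edgeR). Mef2a and Mef2d, which carry an RBFOX-dependent muscle exon like Mef2c, did not pass (log2 fold changes 0.34 and 0.39). Tpm1, which is on this list and on that for RBM20, went from 47281 ± 8902 to 27619 ± 5309 CPM, and the call did not hold without KO replicate 1 (edgeR adjusted p = 0.107) or KO replicate 2 (0.058).

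Of 18 tested genes spliced under MBNL and CELF control 3 fell (median -0.14): Dmd, Dtna and Cacna1s. Their median gene (71.7 CPM) was in the class of 20 to 100 CPM, with 3.64% called lower. Dmd, the dystrophin gene, stood at 99.2, 86.6 and 87.6 CPM (WT) and at 8.57, 14.99 and 14.9 CPM (KO), 7.11-fold lower in the mean (log2 fold change -2.82 with an SE of 0.21, adjusted p = 1.36e-06 in edgeR). Dtna, its partner dystrobrevin, went from 79.6 ± 15.8 to 41.9 ± 0.915 CPM. Cacna1s, the voltage sensor of the muscle calcium channel, is on the RBFOX list too and went from 104.7 ± 20.7 to 60.5 ± 10.1 CPM. The call did not hold without WT replicate 2 (edgeR adjusted p = 0.115) or WT replicate 3 (0.0547), nor with scaling by library totals (0.0596). The chloride channel gene Clcn1 and the calcium pump gene Atp2a1, whose missplicing marks myotonic dystrophy, did not pass.

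**Figure D4:**
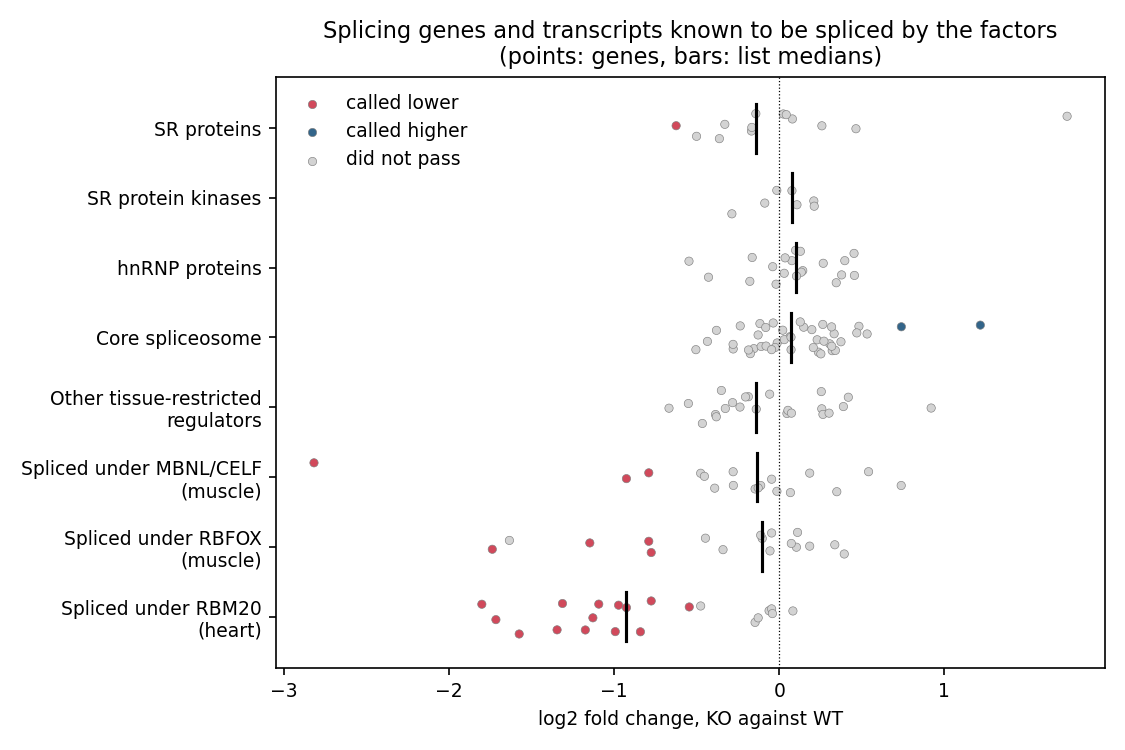
Log2 fold change, KO against WT (x axis), of every tested gene (points, red called lower, blue called higher, grey did not pass) on 5 lists of splicing genes and 3 lists of transcripts spliced by the factors, with list medians as bars. The RBM20 list has its median at -0.93 with 14 of 21 genes called lower, and the other medians lie between -0.14 and 0.10.

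The genes whose profile was most like that of Rbfox1 were found by the root mean square difference of log2 CPM, centred per gene, over the 6 libraries, among tested genes with a mean of at least 20 CPM. They were Lrrc30 (a difference of 0.22), Pkia (0.25), Slc40a1 (0.30), Nr1d1 (0.35) and Dmd (0.36). The measure reflects the gap between the genotypes first, since that gap sets the profile of Rbfox1. Lrrc30, a leucine-rich repeat gene, went from 416 ± 102 to 74.7 ± 13.7 CPM, and Pkia, an inhibitor of protein kinase A, from 344 ± 39.4 to 64.6 ± 3.11 CPM. Slc40a1 encodes the iron exporter ferroportin and Nr1d1 the clock repressor REV-ERB alpha, and they had 5 to 13 and 10 to 26 counts in the KO libraries. Of the other members Mbnl1 was nearest to Rbfox1, with a difference of 0.52, and Mbnl2 (0.96) and Celf2 (1.02) followed.

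**Figure D5:**
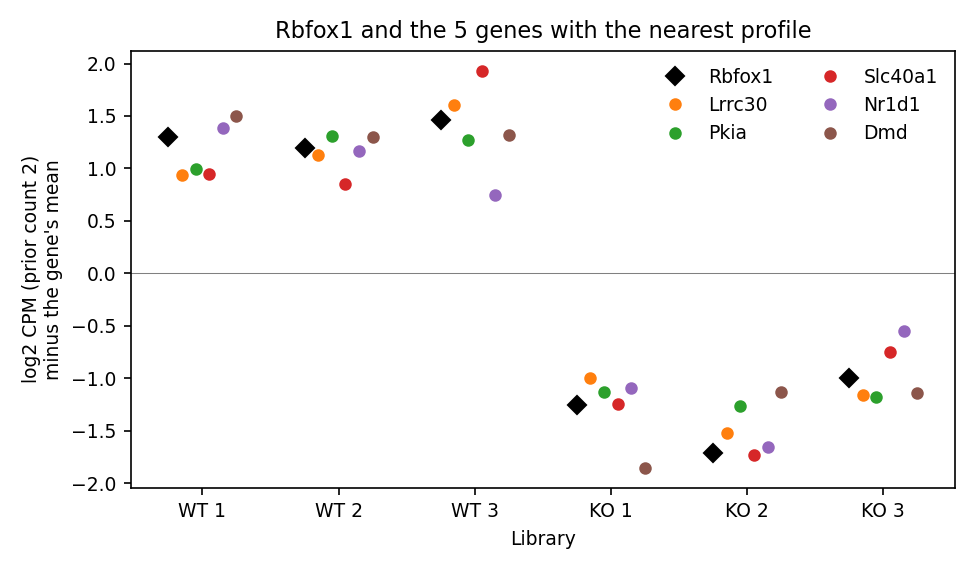
Log2 CPM (prior count 2) minus each gene's mean over the 6 libraries (y axis) for Rbfox1 (black diamonds) and the 5 genes nearest to it, in each library (x axis). All 6 genes lie between 0.74 and 1.93 in WT and between -1.85 and -0.55 in KO.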

How the data were processed

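Per the labels' protocols, total RNA was made into cDNA by template switching, amplified by PCR and read on a nanopore instrument. Raw read counts per Ensembl gene were deposited as whole numbers. CPM values stand beside them, per the file headers, and served here only to check the library totals. The submitters' processing notes name minimap2, DESeq2 1.6.3 and GRCm38. How reads were assigned to genes, with which annotation and whether by strand, is given by none of the sources used here.

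All genes entered 1 fit in edgeR 4.0.16 under R 4.3.3 (filterByExpr with minimum count 10 and minimum total 15, 6680 of 22036 genes kept, TMM scaling, quasi-likelihood test with robust dispersion, Benjamini-Hochberg adjustment at 0.05). An SE is the log2 fold change divided by the square root of F. The steps were tested on simulated counts. A count of 3 is 1.75 to 2.09 CPM of a library's total, which bounds the precision for low genes. The members and lists were chosen with earlier results of these data known. The genes named were the 10 members, up to 4 called genes per list and direction with the smallest p, and the 5 profiles nearest to Rbfox1. Others were named after their values were seen. Alternatives were DESeq2 size factors, upper-quartile scaling, library totals, library sizes without the 20 most abundant genes, no filter, a minimum of 5 CPM in 3 libraries, limma-voom (limma 3.58.1), DESeq2 1.42.0, a fit without robust dispersion, a slow-fibre covariate and each library left out. Sequences are from RefSeq (GRCm38.p6).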

Additional observations from a re-analysis of the deposited data

How the results depend on the processing

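Mbnl1 and Mbnl2 were called lower in all 16 alternative settings, and no member changed direction in any of them. The members called higher went from 1 (Rbm20) to 0 with DESeq2, limma-voom and the slow-fibre covariate, and stayed at 0 with each library left out in turn. Rbfox1 ranged from -2.83 to -2.41 on the log2 scale. Over all genes, the counts called lower and higher were 362 and 344 with no filter, in place of 219 and 199. With library totals 653 were called higher and 148 lower, and with 1 library left out 83 to 179 were called higher, the fewest without WT replicate 2 (83), WT replicate 1 (101) and WT replicate 3 (129). No paired analysis was made, because most numbers in the sample titles do not match between the genotypes and no label says what they mean. Low depth limits Rbfox2 most, with 5 to 18 counts per library.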

Other observations

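Long gene bodies were common among the members: 6 of the 10 span at least 150 kb on GRCm38 (Rbfox1, Celf2, Rbfox2, Rbm20, Mbnl1 and Mbnl2). Of all 6680 tested genes, 333 span 150 to 500 kb and 32 span 500 kb or more. Among all tested genes, those that span 150 to 500 kb were called lower in 12.3% of 333 cases and higher in 1.20%. For spans of 500 kb or more 12.5% of 32 genes were called lower and 0 higher. Genes under 10 kb were called lower in 2.23% and higher in 2.35% of 1705 cases. The part of gene span in the members' differences was not tested. Of the long members, Rbfox1, Celf2, Mbnl1 and Mbnl2 had negative log2 fold changes, and Rbm20 (190 kb) and Rbfox2 (228 kb) positive ones. Celf2 and Rbfox2 did not pass.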
